A study of Mus musculus with 2 samples.

Results

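Kcnj8, Abcc9, Kcne3, Piezo1 and Piezo2 encode subunits of potassium channels and mechanically gated channels, and their transcripts were followed cell by cell in endothelial cells of mouse tumours. These 5 of the 19831 genes in the files were chosen by name, with their levels in both libraries already known, so the difference between the libraries is given as a description. Transcripts were counted by droplet single-cell RNA sequencing (10x Genomics, 3′ v3.1 chemistry), which tags each captured molecule near its 3′ end with a unique molecular identifier (UMI). One library held NF2 KO CD31+ tumour endothelial cells (knockout of Nf2, the gene of the membrane-associated protein merlin) and the other held Control CD31+ tumour endothelial cells. Both came from adult C57BL/6 mice, and in both the cells had been sorted by FACS, with CD31, a surface protein of endothelial cells, named in the titles. There was 1 library per group. The tumour type, the number of mice, the deleted exons and the cells in which Nf2 was deleted are not given in the sources used here.

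ATP-sensitive potassium (KATP) channels link the metabolic state of a cell to its membrane potential: they open when ATP falls and close when it rises. In vascular cells the pore is Kir6.1, encoded by Kcnj8, and it forms working channels together with the regulatory sulphonylurea receptor SUR2, encoded by Abcc9. Both genes are also classical markers of pericytes, the mural cells that wrap capillaries. Kcne3 encodes a small membrane protein with no pore of its own, which assembles with voltage-gated potassium channels such as Kcnq1 and changes their gating. Piezo1 and Piezo2 encode large cation channels that open when the membrane is stretched. Piezo1 is a sensor of shear stress in endothelium, and Piezo2 is best known from touch and proprioceptive neurons.

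In the GENCODE annotation of build GRCm38, all 5 were protein-coding genes. Kcnj8 (ENSMUSG00000030247.9, chr6:142564837-142571614) and Abcc9 (ENSMUSG00000030249.15, chr6:142587862-142702315) lay on the minus strand of the same chromosome, with 16247 bases between them. Kcne3 (ENSMUSG00000035165.14) was at chr7:100176502-100184869 on the plus strand. Piezo1 (ENSMUSG00000014444.17) was at chr8:122481698-122551329 on the minus strand.

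Promoter sequences in the RefSeq table for GRCm38.p6 were matched by symbol and are shown for 4 of the 5 genes. They are shown because Kcnj8, Abcc9 and Kcne3 had alike patterns over the cells, described below, while Piezo1 had another. Each runs 5′ to 3′ on the strand of its gene and ends at the RefSeq start, except that of Abcc9, from which 41 bases overlapping an annotated exon were left off. The Kcne3 window precedes a RefSeq start that lies inside the annotated gene, so it is not upstream of the annotated gene start. Capitals mark letters that match a searched motif.
Kcnj8 promoter (chr6:142571615-142571864, minus strand): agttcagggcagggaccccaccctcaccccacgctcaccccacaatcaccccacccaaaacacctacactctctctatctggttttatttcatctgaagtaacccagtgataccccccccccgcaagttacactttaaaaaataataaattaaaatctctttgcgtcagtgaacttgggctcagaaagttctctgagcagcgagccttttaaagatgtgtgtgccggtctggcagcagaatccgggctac
Abcc9 promoter (chr6:142702316-142702524, minus strand): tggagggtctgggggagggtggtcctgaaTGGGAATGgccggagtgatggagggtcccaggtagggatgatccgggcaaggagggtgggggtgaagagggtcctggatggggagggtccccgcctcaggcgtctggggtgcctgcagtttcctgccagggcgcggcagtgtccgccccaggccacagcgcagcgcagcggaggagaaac
Kcne3 promoter (chr7:100178433-100178682, plus strand): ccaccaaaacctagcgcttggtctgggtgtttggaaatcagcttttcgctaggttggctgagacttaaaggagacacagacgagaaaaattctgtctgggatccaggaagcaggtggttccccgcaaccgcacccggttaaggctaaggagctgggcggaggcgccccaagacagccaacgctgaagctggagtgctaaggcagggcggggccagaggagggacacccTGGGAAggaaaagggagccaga
Piezo1 promoter (chr8:122551330-122551579, minus strand): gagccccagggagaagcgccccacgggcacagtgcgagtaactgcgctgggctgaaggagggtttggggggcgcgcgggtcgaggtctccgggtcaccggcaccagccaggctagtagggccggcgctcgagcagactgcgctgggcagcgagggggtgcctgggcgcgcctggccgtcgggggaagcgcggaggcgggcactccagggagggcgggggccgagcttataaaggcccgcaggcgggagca

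3 motifs were searched on both strands of the 250 bases before each start: GGAATG, the core letters bound by TEAD factors (the DNA-binding partners of YAP and TAZ), TGGGAA, the core letters bound by RBPJ (the Notch effector), and TGANTCA, the core bound by AP-1. The Abcc9 window held TGGGAA at 221 to 216 bases before the start and GGAATG at 219 to 214 bases before it, so that these matches overlap and share letters. The printed Kcne3 window held TGGGAA at 22 to 17 bases before its start, which is the one inside the annotated gene. A second RefSeq window of Kcne3, not printed because it overlaps annotated exons, held TGAATCA, a match to the AP-1 motif, at 37 to 31 bases before its start. No match was found in the Kcnj8 or the Piezo1 window. Of 32851 windows of the same length, 12.6% held GGAATG, 21.6% held TGGGAA and 6.75% held TGANTCA, so matches of this kind are common.

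The tables held 3368 NF2 KO and 2826 control cells. After quality filters, removal of probable doublets and setting aside of shallow or non-endothelial clusters, 2771 NF2 KO cells with 53238992 UMIs (median 17066 per cell) and 1638 control cells with 29395454 UMIs (median 15543.5) were retained. Barcodes carried run numbers 1 and 2 whose meaning the labels do not give. Retained cells had median depths of 15233 and 18768 UMIs in runs 1 and 2 of the NF2 KO library and of 10994.5 and 21788 UMIs in those of the control library, and no more than 1 barcode was shared between any pair of runs. The 20 endothelial markers were all detected in both libraries and summed to 9475 CPM (counts per 1000000 UMIs) in NF2 KO cells and 11998 CPM in control cells. Nf2 itself was at 20.3 CPM in the NF2 KO library (20.1 and 20.4 in its runs) and 21.8 CPM in the control library (20.8 and 22.8). Reads come from 3′ ends, which may lie outside the deleted part, so this level checks neither label.

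The KATP channel genes stood at a low level in the NF2 KO library and at a several-fold higher one in the control library. Kcnj8, the pore subunit, was at 14.6 CPM in NF2 KO cells (95% interval 13.6 to 15.7) and at 108 CPM in control cells (105 to 112), which is 7.42-fold lower in NF2 KO (6.86 to 8.03). By run it was at 18.5 and 12.5 CPM in NF2 KO and at 123 and 94.1 CPM in the control, so each NF2 KO run lay far below each control run. Intervals here and below are exact and cover counting error only, because with 1 library per group neither the spread between animals nor a test between the groups can be had. Abcc9, the regulatory subunit, was at 12.8 CPM in NF2 KO cells and 50.8 CPM in control cells, 3.99-fold lower (3.64 to 4.37). Its runs were at 12.6 and 12.8 CPM in NF2 KO and at 60.9 and 41.2 CPM in the control, again without overlap.

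Kcne3, the accessory subunit, was at 45.8 CPM in NF2 KO cells (runs 38.5 and 49.7) and 180 CPM in control cells (runs 183 and 178), 3.94-fold lower (3.76 to 4.14). The Piezo genes differed from each other. Piezo2 (ENSMUSG00000041482.17, chr18:63010213-63387183, minus strand) was at 21.7 CPM in NF2 KO cells (runs 21.1 and 22.1) and 107 CPM in control cells (runs 128 and 87.4), 4.93-fold lower (4.61 to 5.28). Piezo1 was at 72.5 CPM in NF2 KO cells (runs 76.7 and 70.2) and 83.5 CPM in control cells (runs 83.1 and 83.8), a ratio of 0.868 (0.825 to 0.914). Its runs did not overlap between the libraries either, but its difference was small.

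The size rule counted a gene as different where its ratio of CPM reached 1.5 in either direction, the interval of the ratio excluded 1 and the mean CPM of the libraries was at least 20. All 5 genes reached that mean, Kcnj8 and Abcc9 only through the control library. By this rule 4 of the 5 were lower in NF2 KO cells and Piezo1 was neither, against 5.21% of 5834 genes counted as lower and 2.88% as higher (8.09% in either direction). Of the 5, Kcnj8 and Piezo2 were at least 4-fold lower, as were 0.257% of all genes, and 4 were at least 3-fold lower, beside 0.531% of all genes. Both NF2 KO runs lay below both control runs for all 5 genes, as they did for 37.5% of all genes. The median log2 ratio of all tested genes was -0.03. Counted from the lowest ratio, Kcnj8 was at rank 4, Piezo2 at 9, Abcc9 at 16, Kcne3 at 18 and Piezo1 at 1302. Nothing is read from these ranks, because this contrast chose the genes.

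The runs of a library also differed from each other, though less. Run 2 over run 1 gave ratios in NF2 KO cells of 0.678 for Kcnj8, 1.02 for Abcc9, 1.29 for Kcne3, 0.915 for Piezo1 and 1.05 for Piezo2. In control cells the same ratios were 0.763 for Kcnj8, 0.676 for Abcc9, 0.975 for Kcne3, 1.01 for Piezo1 and 0.683 for Piezo2. None of these 10 passed the size rule. Kcnj8 and Abcc9 could not pass it in NF2 KO, where both runs lay under 20 CPM. The ratios of 0.676 for Abcc9 and 0.683 for Piezo2 in the control came close to the limit of 1.5-fold. Of the genes that reached the mean, 1.19% passed between the NF2 KO runs and 0.717% between the control runs.

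**Figure D1:**
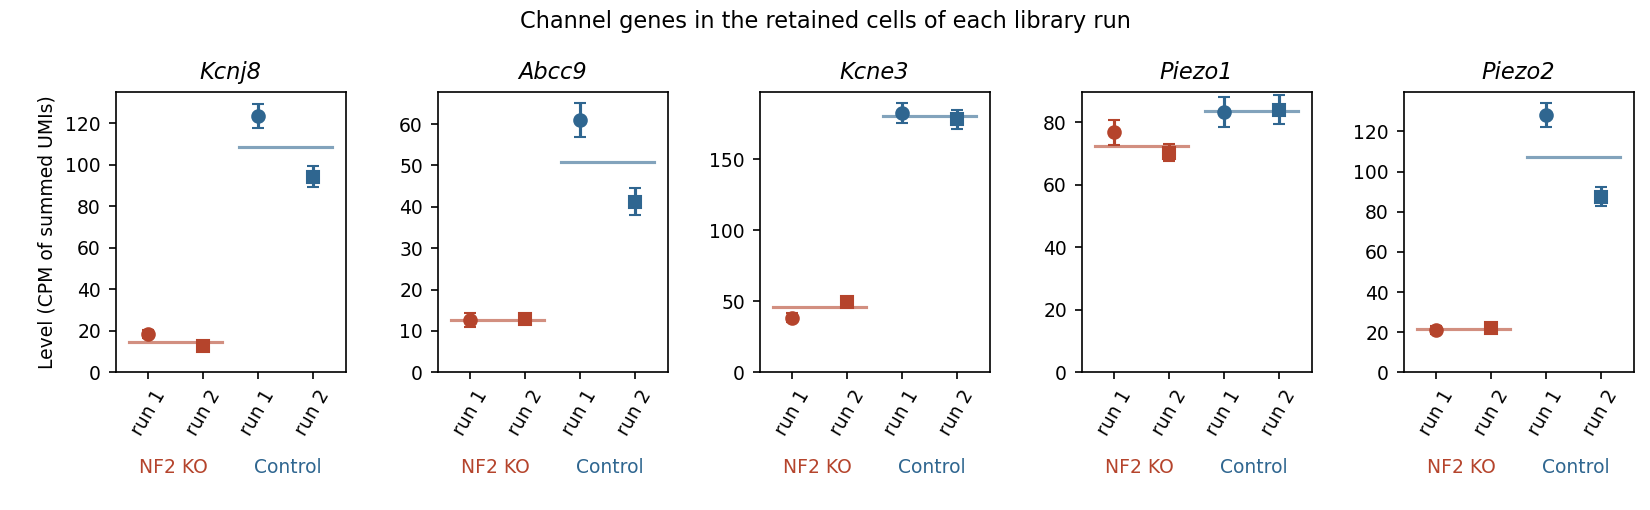
Level of each gene in CPM of summed UMIs (y axis, from 0) in runs 1 and 2 of the NF2 KO library (red, left) and of the control library (blue, right), with exact 95% Poisson intervals as bars and the level of the whole library as a horizontal line. For Kcnj8 the NF2 KO runs sit at 18.5 and 12.5 CPM and the control runs at 123 and 94.1 CPM, whereas all Piezo1 runs lie between 70.2 and 83.8 CPM.

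Detection followed the levels for 4 genes. At least 1 UMI of Kcnj8 was found in 11.04% of NF2 KO cells and 39.9% of control cells, of Abcc9 in 13.6% of NF2 KO and 33.6% of control cells, of Kcne3 in 26.3% of NF2 KO and 52.6% of control cells, and of Piezo2 in 24.2% of NF2 KO and 52.0% of control cells. Piezo1 was found in 65.3% of NF2 KO cells and 59.7% of control cells, an order opposite to that of its CPM, and no order is read from it. Shares depend on depth, so each cell of at least 5000 UMIs (2629 NF2 KO and 1263 control cells, leaving out 142 and 375) was thinned to 5000 UMIs. Kcnj8 was then found in 4.41% of NF2 KO cells (3.66 to 5.27) and 27.5% of control cells (25.03 to 30.03), and Abcc9 in 4.87% of NF2 KO and 17.3% of control cells. Kcne3 was then found in 12.6% of NF2 KO and 37.5% of control cells, Piezo2 in 8.90% of NF2 KO and 34.2% of control cells, and Piezo1 in 30.5% of NF2 KO and 34.6% of control cells. The 4 genes other than Piezo1 were thus found in fewer NF2 KO cells at equal depth too.

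Free RNA can give UMIs in cells that do not express a gene, and no retained cluster is known to lack these channels. The lowest shares were in cluster 9, led by Ackr1, the chemokine receptor of venules, where 0.708% of 424 NF2 KO cells had a Kcnj8 UMI at a median depth of 10925 UMIs, and 1.92% of 52 control cells at 11571.5. Abcc9 was found there in 2.12% of NF2 KO and 1.92% of control cells, Piezo2 in 2.12% of NF2 KO and 5.77% of control cells, and Kcne3 in 1.89% of NF2 KO cells. The shares over all retained cells lay above these, as had to be, since cluster 9 was taken for its low shares. Not all clusters with leading markers of another cell type were low. In set-aside cluster 0, led by S100a9 and Lyz2, control cells had Kcnj8 at 119 CPM, Abcc9 at 47.4, Kcne3 at 182 and Piezo2 at 102. In set-aside cluster 3 Kcnj8 was at 16.5 CPM in NF2 KO and 110 CPM in control, and Piezo2 at 10.3 and 20.1 CPM. The part of free RNA was not tested. Piezo1 was not low in cluster 9, with a UMI in 60.1% of NF2 KO and 73.1% of control cells. Cells with 5 or more UMIs of a gene were 1.66% of NF2 KO cells and 13.2% of control cells for Kcnj8, 0.686% and 4.88% for Abcc9, 5.70% and 20.8% for Kcne3, 1.05% and 14.2% for Piezo2, and 4.87% and 7.26% for Piezo1. The highest number of Kcnj8 UMIs in 1 cell was 23 in NF2 KO and 54 in control. The 10% of cells with the most Kcnj8 UMIs held 96.3% of its UMIs in NF2 KO and 66.2% in control, against 35.2% and 39.8% for Piezo1. Such shares follow detection, as only 306 of 2771 NF2 KO cells had a Kcnj8 UMI. No unevenness of expression is therefore read from them.

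The retained cells fell into 10 clusters, made without the 5 channel genes and called by number and leading genes. Cluster 1 (led by Gal, Ildr2, Celf4 and the tight junction gene Cldn5) held 14 NF2 KO and 607 control cells, and cluster 5 (led by Cldn4, F2rl1 and Chga) held 844 NF2 KO and 17 control cells. Since each group was a single library, cells that cluster by library cannot be told apart from a separate kind of cell. In the control cells of cluster 1, Kcnj8 was at 156 CPM, Abcc9 at 69.5, Kcne3 at 241, Piezo2 at 158 and Piezo1 at 81.6. These cells held 48.4% of the control UMIs, and 69.7% of the UMIs of Kcnj8, 66.2% of Abcc9, 64.5% of Kcne3, 71.2% of Piezo2 and 47.3% of Piezo1. In the NF2 KO cells of cluster 5 the levels were 15.2 CPM for Kcnj8, 14.5 for Abcc9, 47.9 for Kcne3, 25.04 for Piezo2 and 66.3 for Piezo1, close to those of all NF2 KO cells.

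7 clusters held at least 30 cells of each library, and within most of them the channel genes were still lower in NF2 KO cells. Piezo2 was lower in both NF2 KO runs than in both control runs in 7 of 7 clusters, Kcnj8, Kcne3 and Piezo1 in 5 each and Abcc9 in 4. Of all 5834 genes, the share with this order was 30.3% in cluster 2, 27.6% in cluster 4, 23.7% in cluster 9, 27.5% in cluster 10, 24.5% in cluster 11, 26.6% in cluster 12 and 28.4% in cluster 13. For Piezo2 the order rests on 11 NF2 KO and 3 control UMIs in cluster 9. In cluster 4 it rests on 31.3 CPM in NF2 KO run 2 against 31.9 CPM in control run 2. The interval of its ratio lay below 1 in 6 of the 7 clusters. Kcnj8 was at 17.04 CPM in NF2 KO and 135 CPM in control cells of cluster 2, which is led by the hypoxia genes Vegfa, Ero1l and Bnip3, and at 8.36 and 79.4 CPM in those of cluster 11, led by the interferon-induced Rsad2 and Ifit3. In the cycling clusters it was at 13.3 CPM in NF2 KO and 59.7 CPM in control cells (cluster 12, led by Cdc20, with median depths of 16727.5 and 2631 UMIs), and at 8.98 and 74.4 CPM (cluster 13, led by histone genes). In cluster 4, led by Cd74 and the interferon-gamma-induced Ubd and Cxcl9, it was at 15.9 CPM in NF2 KO and 50.9 CPM in control cells. Abcc9 had the same order in these 5 clusters, for example 10.98 CPM in NF2 KO and 57.6 CPM in control cells of cluster 2. Kcne3 was at 82.6 CPM in NF2 KO and 246 CPM in control cells of cluster 2, and at 47.6 and 274 CPM in those of cluster 11.

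Clusters 9 and 10 were different for the KATP genes. In cluster 10, with Rgs2, Ramp3 and Ednrb among its leading genes, Kcnj8 was at 21.2 CPM in NF2 KO cells and 14.95 CPM in control cells, a ratio of 1.42 (0.956 to 2.17), and Abcc9 was at 18.0 CPM in NF2 KO and 12.4 CPM in control cells, a ratio of 1.46 (0.945 to 2.34). Abcc9 was higher in both NF2 KO runs than in both control runs, as were 19.3% of all genes in this cluster. Both intervals include 1, and the values rest on 29 and 24 control UMIs. Here Kcnj8 and Abcc9 were low in control cells too. Piezo2 in cluster 10 was at 30.1 CPM in NF2 KO and 58.8 CPM in control cells, and Kcne3 at 55.0 and 70.1 CPM. In cluster 9 the KATP genes, Kcne3 and Piezo2 were near 0 in both libraries: Kcnj8 was at 2.28 CPM in NF2 KO and 1.53 CPM in control cells, Abcc9 at 3.41 and 3.06, Piezo2 at 2.09 and 4.59, and Kcne3 at 1.52 CPM in NF2 KO and with 0 UMIs in control cells, where 3 UMIs would be 4.59 CPM. Piezo1 alone was high there, at 104 CPM in NF2 KO and 153 CPM in control cells, its highest level among the clusters shown. In the other clusters of at least 30 cells Piezo1 lay between 51.5 CPM (cluster 2) and 83.5 CPM (cluster 13) in NF2 KO, and between 52.1 CPM (cluster 2) and 98.0 CPM (cluster 10) in the control.

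The difference between the libraries depended in size on how cells were spread over the clusters. With the same cluster weights in both libraries, Kcnj8 was 3.17-fold lower in NF2 KO, Abcc9 1.89-fold, Kcne3 2.26-fold and Piezo2 2.75-fold. These values rest in part on few cells. In the 14 NF2 KO cells of cluster 1, Kcnj8 was at 55.6 CPM from 18 UMIs in 3 cells, with 12 of the UMIs in 1 cell. In the 17 control cells of cluster 5 it was at 25.8 CPM from 8 UMIs. Without cluster 1 the ratios of NF2 KO to control were 0.226 for Kcnj8, 0.375 for Abcc9, 0.365 for Kcne3 and 0.360 for Piezo2. In the cells of the clusters that had been set aside (375 NF2 KO and 805 control cells, medians 2724 and 1844 UMIs), Kcnj8 was at 12.3 CPM in NF2 KO and 121 CPM in control, Abcc9 at 8.88 and 43.9, Kcne3 at 63.5 and 195, Piezo2 at 17.1 and 72.2 and Piezo1 at 37.6 and 45.7.

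Marker lists for 9 endothelial states were summed per cell, and the fifth of all cells with the highest level of a list was set against the other cells of the same library. Such a class is a range of a score and not a cell type, and 0.794% to 12.1% of the cells of a library lay within 10% of a limit. None of the lists holds a channel gene. In 22 of the 90 comparisons (5 genes, 9 lists, 2 libraries) a channel gene passed the size rule. Only a gene with a mean of 20 CPM could pass, which held in 25 of 45 comparisons in NF2 KO and in 45 of 45 in the control, and 6 and 16 of these passed. In NF2 KO cells Kcnj8 and Abcc9 lay under that mean for all 9 lists, and Piezo2 for the venous and hypoxia lists, so the counts of the libraries are not comparable. Over the lists and libraries 2.18% to 18.3% of all genes that reached the mean passed, and 10.6% when pooled. Many calls depended on the limit: with the top 10% of cells 27 comparisons passed, of which 18 were among the 22, and with limits set within each library 25 passed, among them all 22. No test was made of these differences, as the cells of 1 library are not replicates.

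The venous list (Ackr1, Selp, Nr2f2, Vwf and 4 others) gave the widest contrast in the control library. Its members Ackr1, Selp and Sele are also leading genes of cluster 9, where the channel genes other than Piezo1 were lowest. The contrast is therefore not separate from that cluster, and the overlap of their cells was not tested. Among control cells, Kcnj8 was at 13.6 CPM in the 225 venous-high cells and 120 CPM in the other 1413, 8.78-fold lower, and it was lower in both runs (ratios 0.188 and 0.0721). The direction held at other limits, but the size did not. Set within the control library, the limit gave 25.9 CPM in venous-high and 125 CPM in other cells (4.81-fold lower), and with the top 10% of cells Kcnj8 was at 2.16 CPM, from 3 UMIs, and 114 CPM (52.7-fold lower, 18.0 to 256). Abcc9 was at 10.47 CPM in venous-high and 55.7 CPM in other control cells, Kcne3 at 32.0 and 198 CPM, and Piezo2 at 32.7 and 116 CPM. These are 5.32-fold lower for Abcc9, 6.19-fold for Kcne3 and 3.56-fold for Piezo2, and with the top 10% of cells they were 18.5-fold, 15.4-fold and 6.21-fold. Piezo1 had the opposite order, with 115 CPM in venous-high and 79.7 CPM in other control cells, a ratio of 1.45 (1.29 to 1.62), which passed the rule with the top 10% of cells (1.73). In NF2 KO cells Kcnj8 was at 12.5 CPM in the 657 venous-high cells and 15.2 CPM in the other 2114, and Abcc9 at 11.4 and 13.1 CPM. How venous-high cells of the libraries compared depended on the limit: Kcnj8 was at 12.5 CPM in NF2 KO and 13.6 CPM in control cells at the limit over both libraries, at 12.2 and 25.9 CPM at limits within each library, and at 7.60 and 2.16 CPM in the top 10%. Venous-high cells had median depths of 15145 UMIs in NF2 KO and 13069 in control, against 17777.5 and 16155 UMIs in the other cells. Kcne3 was lower in venous-high NF2 KO cells (21.8 CPM against 52.3 in the others) and Piezo1 higher (102 against 64.5). For this list both channel genes that reached the mean passed the size rule in NF2 KO, beside 10.7% of all genes, and 4 of 5 in the control, beside 12.5%.

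Kcne3 followed the hypoxia and tip lists in both libraries. In cells high for the hypoxia list (Vegfa, Bnip3, Slc2a1 and others) it was at 78.9 CPM against 35.9 CPM in other NF2 KO cells, a ratio of 2.20 (2.02 to 2.38), and at 281 CPM against 155 CPM in other control cells, a ratio of 1.82 (1.72 to 1.93). It was higher in each of the 4 runs, with ratios of 2.25 and 2.16 in NF2 KO and 1.37 and 2.33 in control. It passed the size rule in both libraries, beside 18.3% of all genes in NF2 KO and 15.2% in the control, but with the top 10% of cells its ratio in the control was 1.36 and did not pass. The Piezo genes lay below 1 without passing the rule, with ratios for Piezo1 of 0.712 in NF2 KO and 0.676 in control, and for Piezo2 of 0.547 in NF2 KO, where its mean was under 20 CPM, and 0.705 in control. With the top 10% of cells Piezo1 passed in both libraries (0.650 in NF2 KO and 0.647 in control) and Piezo2 in the control (0.514). Kcnj8 had ratios of 1.20 in NF2 KO and 1.12 in control, with the runs of each library on either side of 1 (0.808 and 1.58 in NF2 KO, 0.900 and 1.43 in control). Abcc9 had ratios of 0.897 in NF2 KO and 0.979 in control.

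In cells high for the tip list (Apln, Esm1, Angpt2 and others, genes of sprouting endothelium) Kcne3 was at 71.9 CPM against 38.3 CPM in other NF2 KO cells and at 268 against 161 CPM in other control cells. Abcc9 was at 83.1 CPM against 43.7 CPM in the control, a ratio of 1.90 (1.701 to 2.13), and at 16.8 against 11.6 CPM in NF2 KO, a ratio of 1.45 (1.22 to 1.72). Kcnj8, with ratios of 1.37 in NF2 KO and 1.38 in control, and Piezo2, with 1.31 in NF2 KO and 1.41 in control, did not pass the rule. The ratio of Kcnj8 in NF2 KO was 0.973 with the top 10% of cells. For tip-high cells 1 of the 3 channel genes that reached the mean passed the size rule in NF2 KO, beside 16.1% of all genes, and 2 of 5 in the control, beside 15.6%.

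Cells high for the interferon list had lower Kcne3 than other cells in both libraries, and lower KATP genes than other cells in the control. Kcne3 was at 28.1 CPM in interferon-high and 50.2 CPM in other NF2 KO cells, and at 97.3 and 200 CPM in control cells. Kcnj8 was at 68.7 CPM in interferon-high and 118 CPM in other control cells, and Abcc9 at 33.1 and 54.9 CPM. The other cells can include those of cluster 1, which held most control UMIs of both genes. Control cells outside cluster 1 had Kcnj8 at 63.5 CPM, Abcc9 at 33.3 and Kcne3 at 124. Against these levels interferon-high cells were lower for Kcne3, not lower for Kcnj8 and about equal for Abcc9. The part of cluster 1 in the contrasts of this paragraph was not tested. The counts past the size rule were 1 of the 3 that reached the mean in NF2 KO (5% of all genes) and 3 of 5 in control (6.8%). The chemokine list shares Icam1, Vcam1 and Sele with the venous one. In chemokine-high control cells 4 of 5 were lower (4.24% of all genes passed), with ratios of 0.615 for Kcnj8, 0.488 for Abcc9, 0.591 for Kcne3 and 0.552 for Piezo2, while 0 of 3 passed in NF2 KO (2.18%). With the top 10% of cells the ratio of Kcnj8 was 0.771 and did not pass, and with limits within each library Kcne3 passed in NF2 KO too (0.637). Mitotic-high and S-phase-high control cells had lower Kcnj8 (ratios 0.619 and 0.566, beside 13.2% and 12.8% of all genes). Kcnj8 was at 73.1 CPM in mitotic-high, 68.1 CPM in S-phase-high and 69.6 CPM in chemokine-high control cells. None of these lay below the 63.5 CPM of control cells outside cluster 1. In chemokine-high control cells Abcc9 (26.3 CPM) and Kcne3 (112 CPM) did lie below the levels outside cluster 1, and Piezo2 (62.4 CPM against 59.9) did not. With the top 10% of cells the mitotic ratio was 0.678 and did not pass, whereas Kcne3 did (0.600). The mitotic-high control cells were shallow, with a median of 6428 UMIs against 16634 in the others, and the part of depth was not tested. In NF2 KO 0 of the 3 genes that reached the mean passed for either list (17.3% and 18%). Capillary-high cells differed past the rule for Kcne3 in NF2 KO, with a ratio of 1.54 (6.55% of all genes) that was 1.05 (0.904 to 1.21) with the top 10% of cells, and for no channel gene in the control (3.78%). For the arterial list 0 of 3 passed in NF2 KO (8.21%) and 0 of 5 in control (3.82%). With the top 10% of cells Kcne3 passed as higher in NF2 KO (1.75), and Kcnj8, Kcne3 and Piezo2 passed as lower in control (0.546, 0.601 and 0.399). The ratio of Kcnj8 in arterial-high control cells thus depended on the limit, as it was near 1 (1.08) at the wider one.

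**Figure D2:**
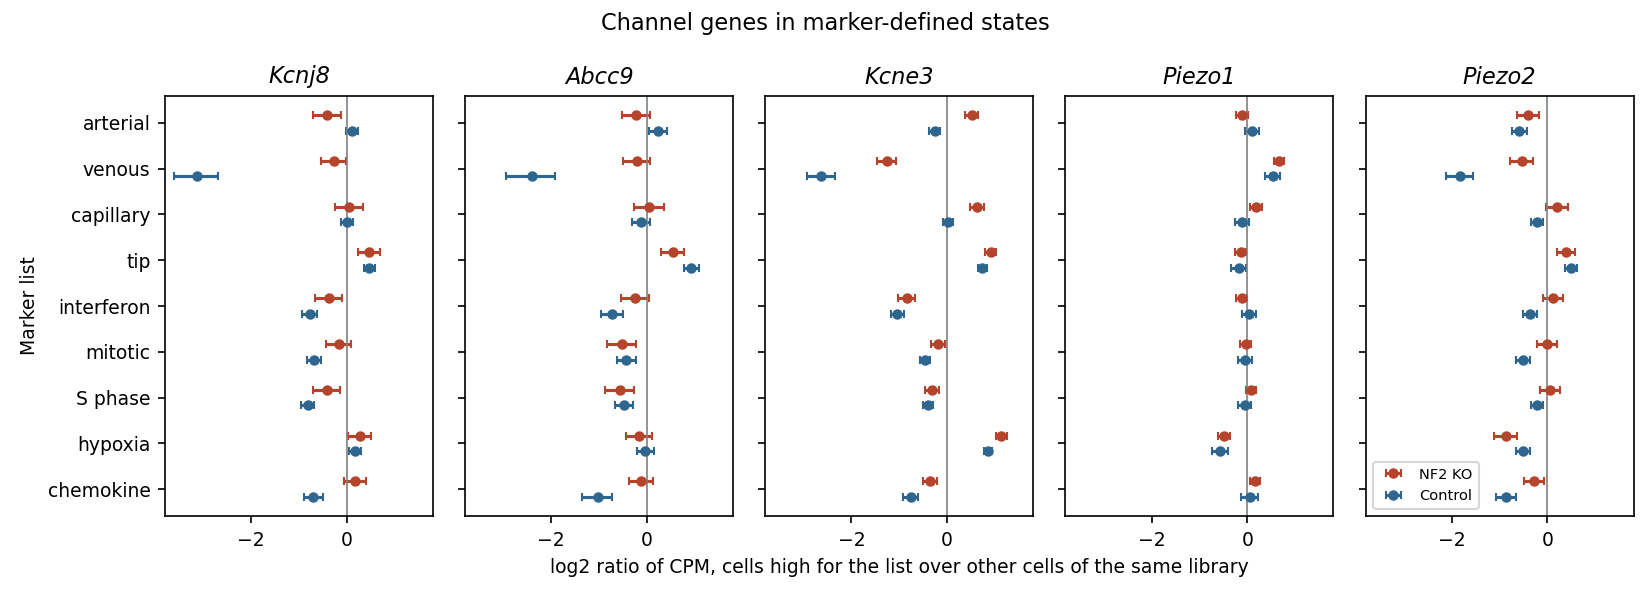
Log2 ratio of CPM in cells high for a marker list over the other cells of the same library (x axis) for 9 lists (rows) and the 5 genes (panels), NF2 KO in red above control in blue, with exact 95% intervals of the counts as bars. In the venous row the control points of Kcnj8, Abcc9, Kcne3 and Piezo2 lie far left and Piezo1 lies right, and in the hypoxia and tip rows Kcne3 lies right in both libraries.

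The subunits of the KATP channel were found together more often than their separate shares would give. Among cells thinned to 5000 UMIs, 27 NF2 KO cells had UMIs of both Kcnj8 and Abcc9 where 5.64 were expected from the shares in each run, a ratio of 4.79 (3.16 to 6.97), and 107 control cells where 61.4 were expected, a ratio of 1.74 (1.43 to 2.11). The ratio was above 1 in each run, at 4.68 and 4.92 in NF2 KO and at 1.67 and 1.89 in control. The highest ratio possible falls as the shares rise, so the ratios of the libraries are not comparable in size. Abcc9 was found in 23.3% of NF2 KO cells with a Kcnj8 UMI, against 4.02% of those without, and in 30.8% of control cells with a Kcnj8 UMI, against 12.2% of those without. With expected counts taken within each cluster of each run, the ratio over both libraries was 1.61 (1.352 to 1.91), against 1.999 (1.68 to 2.37) without regard to clusters.

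Kcne3 and Piezo2 also went with the KATP genes, and Piezo1 did not. In NF2 KO cells the observed over expected ratio was 2.81 for Abcc9 with Piezo2, 2.54 for Kcnj8 with Piezo2, 1.98 for Abcc9 with Kcne3, 1.59 for Kcne3 with Piezo2 and 1.20 for Kcnj8 with Kcne3, of which the last had an interval that included 1 (0.697 to 1.92). In control cells the ratio was 1.46 for Abcc9 with Piezo2, 1.30 for Kcnj8 with Piezo2, 1.45 for Abcc9 with Kcne3, 1.34 for Kcne3 with Piezo2 and 1.52 for Kcnj8 with Kcne3, all with intervals above 1. The 4 pairs with Piezo1 had ratios of 0.994 to 1.12 in NF2 KO and 0.905 to 1.06 in control, and all 8 of their intervals included 1. Within clusters the ratios over both libraries were 1.39 for Abcc9 with Piezo2, 1.30 for Abcc9 with Kcne3, 1.23 for Kcnj8 with Kcne3, 1.20 for Kcne3 with Piezo2 and 1.16 (0.999 to 1.34) for Kcnj8 with Piezo2. Only the 10 pairs of channel genes were counted. How often other pairs of genes reach such ratios was not tested, so they are not read as particular to these genes.

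**Figure D3:**
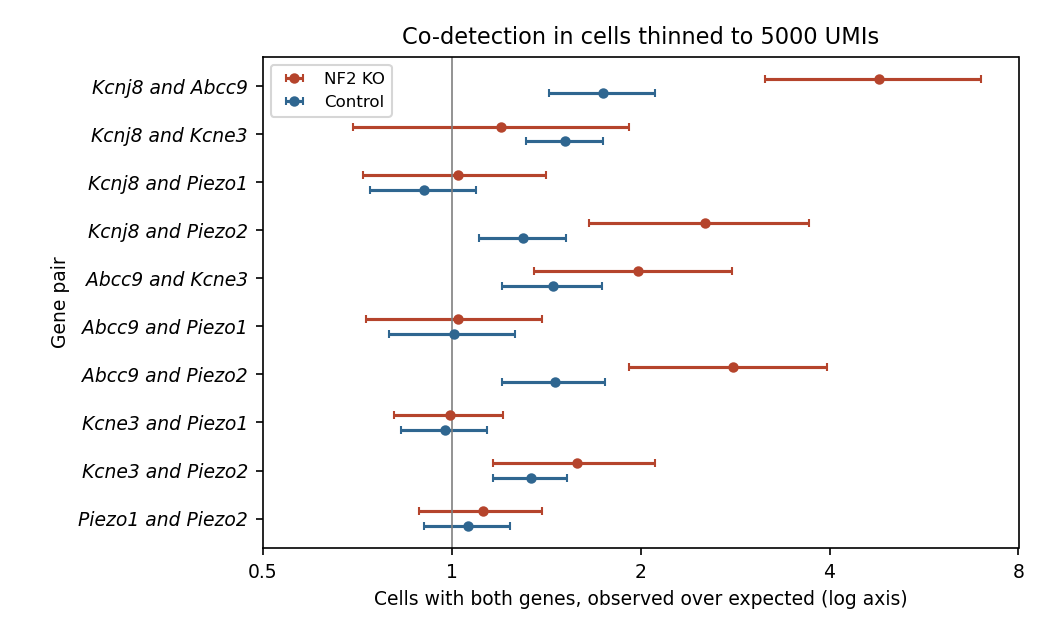
Number of cells with UMIs of both genes of a pair over the number expected from their shares in each run (x axis, log scale), for 10 pairs, in cells thinned to 5000 UMIs, NF2 KO in red above control in blue, with exact 95% Poisson intervals of the observed count as bars. Kcnj8 with Abcc9 lies farthest right in NF2 KO, at 4.79, and the pairs with Piezo1 lie around 1. Ratios of the libraries are not comparable in size.

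Counted per cell, no channel gene was found in 52.3% of thinned NF2 KO cells and 23.3% of thinned control cells. A single one was found in 36.6% of NF2 KO and 31.4% of control cells, 2 in 8.90% and 24.0%, 3 in 1.83% and 14.5% and 4 in 0.380% and 6.10%. All 5 were found in 0 of 2629 thinned NF2 KO cells, which allows up to 0.114% of cells with UMIs of all 5 at a depth of 5000 UMIs and sets no limit on cells that express them, and in 10 of 1263 thinned control cells (0.792%). At full depth the 5 genes were found together in 1.52% of NF2 KO cells and 15.1% of control cells.

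**Figure D4:**
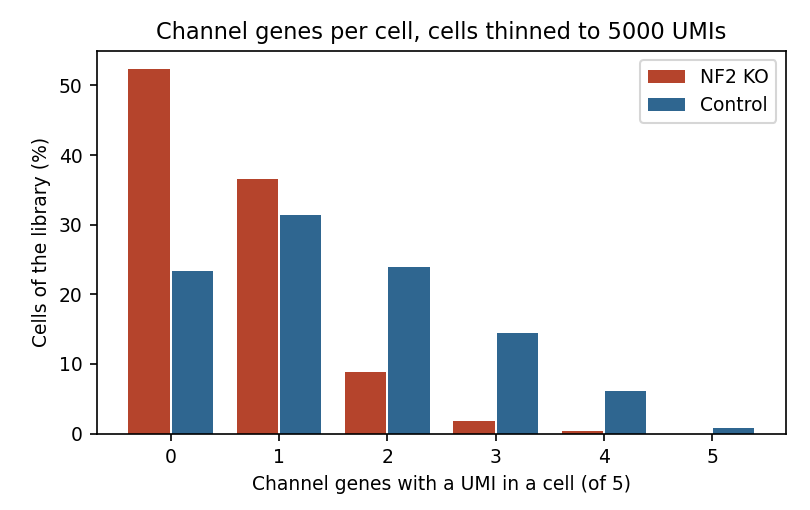
Share of cells (y axis, percent of thinned cells of a library) by the number of the 5 channel genes with a UMI in the cell (x axis), NF2 KO in red and control in blue. In NF2 KO 52.3% of cells have none, against 23.3% in the control, and the control is higher from 2 genes upwards.

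Because Kcnj8 and Abcc9 mark pericytes, pericyte genes were set beside them. The 13 pericyte markers summed to 311 CPM in NF2 KO cells and 557 CPM in control cells, of which Mcam, a gene also known from endothelium, gave 292 and 541 CPM. The defining markers were low: Pdgfrb was at 0.244 CPM in NF2 KO and 0.136 CPM in control, Rgs5 at 4.77 and 4.63, and Cspg4 at 0.0563 and 0.0340. In the 2395 NF2 KO and 1405 control cells without a UMI of the 12 markers other than Mcam, Kcnj8 was at 14.3 CPM in NF2 KO and 107 CPM in control, and Abcc9 at 12.6 and 50.2 CPM. These cells held 83.0% of the Kcnj8 UMIs in NF2 KO and 79.3% in control. They were most of the 2771 NF2 KO and 1638 control cells, so large shares are not particular to them. The difference was as large in them as in all cells (7.49-fold lower for Kcnj8 and 3.98-fold for Abcc9). Only 9 NF2 KO and 8 control cells had 3 or more of the markers, and they held 1.54% and 0.502% of the Kcnj8 UMIs. Kcnj8 was at 51.5 CPM in these NF2 KO cells, from 12 UMIs, and 103 CPM in these control cells. Abcc9 was at 64.3 CPM, from 15 UMIs, and 45.0 CPM. In NF2 KO both lay above the levels of all cells, and the intervals of both ratios to control (0.216 to 1.13 and 0.549 to 4.15) include 1.

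Markers of other cell types were at low sums in both libraries. Smooth muscle markers summed to 77.7 CPM in NF2 KO and 101 CPM in control, neutrophil markers to 70.3 and 91.5, macrophage and monocyte markers to 38.4 and 50.7, erythroid markers to 22.5 and 47.9, epithelial markers to 32.9 and 7.59, fibroblast markers to 16.2 and 18.1, platelet markers to 14.1 and 13.2 and lymphocyte markers to 1.24 and 1.29. Their part in the levels of the channel genes was not tested.

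Most other channel genes did not reach a mean of 20 CPM, and 1 in each of the potassium channel lists named first was counted as lower, beside 5.21% of all genes. Of 14 further KATP and inward rectifier genes, 8 were in the files and 2 reached a mean of 20 CPM: Kcnj2, the pore of Kir2.1, was lower in NF2 KO cells, at 32.2 CPM against 70.2 CPM in control (ratio 0.459, 0.430 to 0.489), and Kcnj15 was at 25.3 and 21.8 CPM. Of 22 genes of the Kcne family and voltage-gated potassium channels, 16 were in the files and 2 reached that mean: Kcnq1, a pore partner of Kcne3, was lower in NF2 KO cells, at 26.0 CPM against 45.8 CPM in control (ratio 0.567, 0.526 to 0.612), and Kcna5 was at 17.6 and 23.0 CPM. Of 16 calcium-activated and two-pore potassium channel genes, 14 were in the files and 0 reached it. The median log2 ratio of the 2 genes that reached the mean was -0.45 in the first list and -0.60 in the second, beside -0.03 over all genes.

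Of 18 other genes of mechanically gated channels 15 were in the files, 4 reached the mean and 0 were counted as different, beside 8.09% of all genes, so that little is to be read from so few. Their median log2 ratio was 0.03. Nothing is said of the scarcer ones. Trpm7, a channel with a kinase domain, was at 41.9 CPM in NF2 KO and 35.1 CPM in control (ratio 1.19), and Pkd1, Pkd2 and Tmem63b had ratios of 1.02, 1.02 and 0.932. Of 9 genes reported to bind or modulate Piezo channels all were in the files and 5 reached the mean, of which again 0 were counted as different (median log2 ratio -0.03). Mdfic, an auxiliary protein of Piezo channels, was at 24.9 CPM in NF2 KO and 24.2 CPM in control. Ctnnb1, the gene of beta-catenin, was at 289 CPM in NF2 KO and 427 CPM in control (ratio 0.678), and Atp2a2 and Pecam1 had ratios of 0.981 and 0.935.

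The genes most like each channel gene were taken by Pearson correlation of log2(CPM + 10) over 16 units of at least 30 cells, each the cells of 1 cluster in 1 library, so that units share libraries and are a description. Kcnj8 and Abcc9 were each the nearest gene to the other over these units, with r of 0.981. Lamb1, a laminin chain, followed for both (0.940 and 0.942), then Gng2, a G protein subunit, with 0.932 and 0.927. Ildr2 and Antxr2 came next for Kcnj8 (0.923 and 0.919), and Antxr2 and Mcam for Abcc9 (0.918 and 0.915). The nearest genes to Kcne3 were Gng2 (0.9498), the growth factor binding protein gene Igfbp3 (0.938), Rasgrp3 (0.926), Oaf (0.925) and Spry4 (0.921). Those nearest to Piezo2 included the laminin chain gene Lamc1 (0.961), the VEGF receptor gene Flt4 (0.959), Pcdh12 (0.943) and Gng2 (0.941). Piezo1 had other neighbours: Ltbp4 (0.928), Ier2 (0.927), Nfia (0.926), Man2a1 (0.923) and Mtus1 (0.919). Its r with the channel genes Kcnj8, Abcc9 and Kcne3 was -0.25, -0.24 and -0.46. The difference between the libraries enters each r given above. Over the 8 NF2 KO clusters alone, r of Kcnj8 with Abcc9 was 0.819. Other genes were then nearer to each, with a highest r of 0.901 for Kcnj8 and 0.968 for Abcc9.

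Control cells with and without a UMI of a gene were compared after thinning to 5000 UMIs. In the 347 cells with Kcnj8, Abcc9 was at 96.3 CPM against 30.3 CPM in the 916 without (ratio 3.17), Kcne3 at 274 against 128 CPM (2.14) and Piezo2 at 146 against 87.1 CPM (1.68), while Piezo1 was at 76.1 against 91.7 CPM (0.830, 0.677 to 1.01). The 10 genes with the highest ratio were Hbb-bs, Abcc9, 9530059O14Rik, Camk2n1, Pde3b (a cyclic nucleotide phosphodiesterase), Celf4, Btnl9, 2700081O15Rik, Sez6l2 and Prag1. Hbb-bs, a haemoglobin gene, rests on 1 cell that held 64.6% of its UMIs in the cells with Kcnj8. For Kcne3 (474 cells with and 789 without) they included Hbb-bs, with 66.3% of its UMIs in 1 cell, then Celf4 (2.81), Kcnj8 (2.75), Vegfa (2.51), Nptx1, Il4i1, Ift122, 2010005H15Rik and Ero1l (2.19). Vegfa and Ero1l are genes of the hypoxia response. For Piezo2 (432 with and 831 without) they were Nptx1 (3.89), Sez6l2 (2.89), Gdpd5 (2.58), Celf4 (2.31), Sept1 (2.22), Arhgap18 (2.20), Rcsd1, Idh1, Rftn2 and Cttnbp2. In NF2 KO cells Abcc9 and Piezo2 stood higher beside Kcnj8: Abcc9 was at 56.9 CPM in the 116 cells with it and 9.55 CPM in the 2513 without (ratio 5.96), and Piezo2 at 58.6 and 19.3 CPM (3.04). Kcne3 had a ratio of 1.41 (0.948 to 2.03) and Piezo1 of 0.919 (0.652 to 1.26).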

How the data were processed

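The authors deposited 1 table per library of natural log values. A check of the values showed each to be the natural log of 1 plus 10000 times a UMI count over the total of its cell, so whole UMI counts were recovered (100% of values whole within 0.01 UMI), in place of the deposited counts that had been assumed. The submitters' processing notes name Cell Ranger 3.0.0, Seurat 3.1.1 and mm10, but no settings.

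Cells entered with 1000 UMIs and 500 genes or more, and no more than 10% of UMIs from mitochondrial genes (3312 NF2 KO and 2572 control cells). The automatic threshold of the doublet score marked 0% and had not worked, so the highest-scoring 5% (166 NF2 KO and 129 control cells) were removed. The rest were clustered without the channel genes (2000 variable genes, 30 principal components, 15 neighbours, Leiden resolution 0.8; scanpy 1.11.5, scipy 1.17.1, Python 3.11.15). Of 16 clusters, those with a median depth under 0.333 of that of their own library and without an endothelial leading gene, or led by markers of another type, were set aside (0, 3, 6, 7, 14 and 15). Clusters 5, 8 and 9 had 1 leading marker of another type and no endothelial one, and were kept. UMIs were summed per library or run. Intervals are exact at 95% (Poisson, conditional for ratios, Clopper-Pearson for shares). The size rule was run on simulated data, but no rate of false calls for 1 library per group is given here.

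The genes, lists, states and rules were chosen with earlier results of these data known. The named genes are the 5 channel genes, list members past the size rule with up to 4 others of the highest mean CPM, the 5 nearest genes to each channel gene, and the 10 highest ratios in cells with Kcnj8, Kcne3 or Piezo2. Alternatives changed the cell filters, doublets, thinning, weighting, clusters and runs. No Piezo2 sequence is shown, and a few genes that these rules name are not reported here.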

Additional observations from a re-analysis of the deposited data

Results flagged for a closer look

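In cluster 10, Abcc9 was higher in both NF2 KO runs (16.8 and 18.9 CPM) than in both control runs (8.40 and 16.2 CPM), a ratio of 1.46, while over all retained cells it was lower in both NF2 KO runs. The interval (0.945 to 2.34) includes 1, and the difference between this cluster and the others was not tested.

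Kcne3 had opposite directions in arterial-high cells of the libraries. It was higher in them than in the other cells in both NF2 KO runs (ratios 1.38 and 1.40, and 1.43 for the library) and lower in both control runs (0.882 and 0.788, and 0.834 for the library). Neither library ratio passed the size rule at this limit. Kcne3 with the arterial list was picked out from all channel genes and lists because its directions were opposite. How often other genes have such opposite directions was not tested, so nothing particular to Kcne3 is read from it. The difference between the libraries was not tested either.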

How the results depend on the processing

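Under all 14 alternatives the ratios of NF2 KO to control stayed below 1 for the 5 genes, and Kcnj8, Abcc9, Kcne3 and Piezo2 stayed past 1.5-fold (3.17 to 8.65-fold lower, 1.89 to 4.78, 2.26 to 4.68 and 2.75 to 5.89), while Piezo1 never reached it (ratios 0.785 to 0.985). With the same cluster weights the ratios were 0.316 (Kcnj8), 0.529 (Abcc9), 0.443 (Kcne3), 0.785 (Piezo1) and 0.364 (Piezo2), resting in part on few cells. Without cluster 1 they were 0.226, 0.375 and 0.365 for Kcnj8, Abcc9 and Kcne3 and 0.360 for Piezo2. Without clusters 5, 8 and 9 Kcnj8 was at 0.147 and Kcne3 at 0.281. With cells thinned, Kcnj8 was at 0.123 and Kcne3 at 0.230. Means of per-cell CPM gave 0.235 for Kcne3, 0.985 for Piezo1 and 0.225 for Piezo2, and gating cells one by one gave 0.928 for Piezo1. Leaving out 1 run gave ranges of 0.116 to 0.171 (Kcnj8, with 0.155 without control run 1 and 0.118 without control run 2), 0.209 to 0.310 (Abcc9), 0.214 to 0.275 (Kcne3) and 0.170 to 0.249 (Piezo2), and 0.919 for Piezo1 without NF2 KO run 2. Co-detection of Kcnj8 and Abcc9 over both libraries was 1.999 and within clusters 1.61. State comparisons past the size rule numbered 22, 27 with the top 10% of cells (18 of the 22 kept) and 25 with limits set within a library (all 22 kept). The cause of these shifts was not tested.

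No paired analysis was possible because each group is 1 library and the labels give no replicate numbers. Depth limits cluster 9 in particular, where a control level below 4.59 CPM of Kcne3 could not be seen. Levels of different channel genes were not compared.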
